A study of Mus musculus with 10 samples.

Results

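The elastic fibre genes described here were measured in AtT20 cells, corticotroph cells of a mouse pituitary tumour, with and without knockdown of the transcription factor *Creb3l1*. They are *Eln*, *Fbn1*, *Fbn2*, *Fbln1*, *Fbln2*, *Fbln5*, *Efemp2*, *Emilin1*, *Mfap2* and *Mfap4*, all 10 found by symbol among the 53801 genes of the count table. They were chosen from a list of elastic fibre components because *Eln* was about 3.04 times as high in the knockdown line, so the contrast between the lines chose them and their differences are given below as a description. No p-value is given for them, and which of them passed the threshold used for all genes is stated only for completeness. One stable line carried *Creb3l1*-shRNA1, a short hairpin that targets *Creb3l1* RNA, and the other carried a non-targeting hairpin. Both derived from AtT20/D16v-F2 cells transduced with lentivirus and grown in the same serum-containing medium, and each gave 5 libraries of poly(A)-selected RNA. A second knockdown line that the study made with another hairpin is not analysed here, so an effect of the knockdown and a property of the single line that carries it cannot be told apart. The study's methods call the replicates of its experiments biological, but no source used here says how the 5 libraries of a line were grown apart, so the p-values below measure the spread between libraries of a single line.

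Elastic fibres give lungs, arteries and skin their recoil. Cells secrete tropoelastin, the product of *Eln*, which gathers into globules, is guided by fibulins onto a scaffold of fibrillin microfibrils and is cross-linked there by lysyl oxidases into an insoluble polymer. Smooth muscle cells, fibroblasts and endothelial cells are the classical sources, and pituitary hormone cells are not known for this product. Only RNA was measured here, and neither protein nor fibres were.

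The sequences that define the comparison and the member that led it are shown first. The 21-base target sequences of the hairpins, as designed by the study, separate the lines.
Creb3l1-shRNA1: gagtcggatttcctcaacaat
Non-targeting shRNA: atcatgttaggcgtacggact
A stretch of 150 coding bases of *Eln* (codons 613 to 662 of 859, exons 27 and 28 of 37, chr5:134710138-134711203 on the minus strand of GRCm38) is shown. It was chosen because no stretch of 50 codons held more runs of codons for valine, proline and glycine. Capitals mark codons for valine, proline and glycine in a row, which occur 6 times in this stretch and 23 times in the coding sequence of that transcript.
Eln: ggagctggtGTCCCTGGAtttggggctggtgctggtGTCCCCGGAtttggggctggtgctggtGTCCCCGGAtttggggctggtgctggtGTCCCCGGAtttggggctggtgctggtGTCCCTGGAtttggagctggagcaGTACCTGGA

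Library totals ran from 17420698 to 22205107 counts. Values are normalised counts, the count divided by the library's effective size (total times edgeR's TMM factor) and multiplied by the mean effective size. *Creb3l1* (ENSMUSG00000027230) was between 3531 and 3864 in the non-targeting libraries and between 1014 and 1159 in the *Creb3l1*-shRNA1 libraries, so every library matched its label. Its log2 fold change was -1.76 (SE 0.036, edgeR quasi-likelihood test, Benjamini-Hochberg adjusted p = 2.1e-33, n = 5 per line). Reads of the non-coding *Gm42418* were 4.13% of those in non-targeting replicate 3, and 0.106% to 0.191% elsewhere. The corticotroph label was met by *Pomc*, the precursor of ACTH, at a mean of 131411 in the non-targeting line and 92045 in the *Creb3l1*-shRNA1 line, and by *Tbx19*, the corticotroph lineage factor, at 11661 and 9669. Of 6 corticotroph markers tested at an adjusted p under 0.01 in edgeR, *Pomc*, *Tbx19* and *Pcsk1* fell and *Neurod1* and *Pitx1* rose. *Crhr1* was low, with means of 29.22 and 26.95 in the respective lines, and did not pass. At this threshold 40.7% of all 14336 genes tested were called, 20.6% higher and 20.1% lower. The summed level of the 6 corticotroph markers was 150424 to 161539 in the non-targeting libraries and 108547 to 115408 in the *Creb3l1*-shRNA1 libraries. Among 8 markers of other pituitary cells, *Prl*, *Tshb*, *Fshb* and *Pou1f1* had no count in any library. *Gh*, *Lhb* and *Cga* were at most 1.07, 1.878 and 7.27 in any library. *Nr5a1*, the 1 that was tested, was present in every library, at 69.78 to 94.14 and 51.17 to 70.21 in the respective lines, and was not called. The sum of the 8 markers was 76.38 to 94.14 and 55.9 to 75.43, most of it from *Nr5a1*. As in any bulk sample, fewer cells that express a gene and less of its RNA per cell cannot be told apart.

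The elastic fibre genes did not move together. *Eln* was the highest of the members and was higher still in the *Creb3l1*-shRNA1 line. *Fbn2* and *Efemp2* were low and had lower means in that line, and the other 7 members were near the limit of detection in both lines. Of the 10 members, 3 had enough counts to be tested. At an adjusted p under 0.01 in edgeR, 2 of these 3 were called, *Eln* in the higher and *Fbn2* in the lower direction, where 40.7% of all 14336 genes tested were called, 20.6% higher and 20.1% lower. The same 2 members were called with a change of at least 1.5-fold, and 7.73% of all genes tested met both conditions. Both also did not overlap between the lines, as 36.0% of all genes tested did not. Since the contrast chose the members, nothing is read from these counts.

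**Figure D1:**
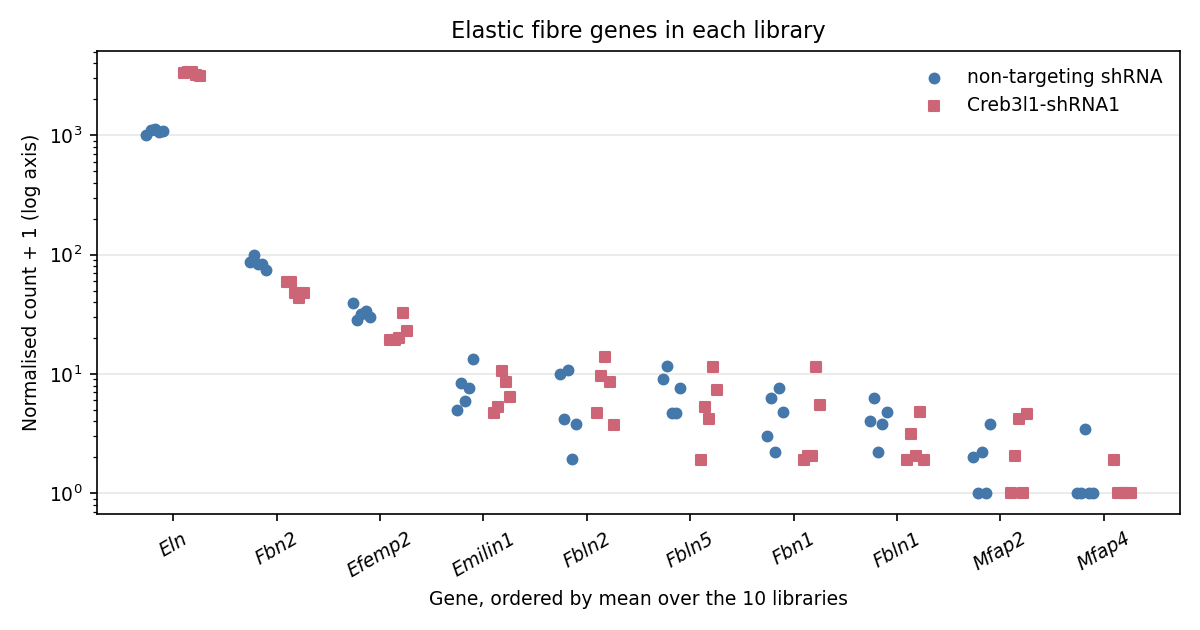
Normalised count plus 1 of each elastic fibre gene on a log axis, with 1 point per library (circles, 5 non-targeting; squares, 5 *Creb3l1*-shRNA1) and genes ordered by their mean over the 10 libraries. *Eln* stands alone above 1000, *Fbn2* and *Efemp2* lie between about 18 and 99, and the other 7 genes stay at or under 12.76 before the 1 was added.

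*Eln* (ENSMUSG00000029675) encodes tropoelastin, the elastic core of the fibre, and lies at chr5:134702593-134747323 on the minus strand of GRCm38. Its normalised counts in non-targeting replicates 1 to 5 were 1010, 1099, 1132, 1069 and 1088. In *Creb3l1*-shRNA1 replicates 1 to 5 they were 3319, 3394, 3368, 3186 and 3154. Every *Creb3l1*-shRNA1 library was far above every non-targeting library, and within a line the libraries lay close together. The means were 1080 ± 45.2 and 3284 ± 107.9 (SD, n = 5 each), so the SD was 4.19% of the mean in the non-targeting line and 3.29% in the *Creb3l1*-shRNA1 line. The log2 fold change was 1.61 (SE 0.034). By the size of its log2 fold change *Eln* was number 62 from the top of 14336 genes tested, and number 4 of the 5257 genes whose mean normalised count reached 1000. Most of the genes above it were therefore less abundant.

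The level of *Eln* was not small in either line. Per kilobase of its transcript of 3853 bases the mean normalised count was 280.2 in the non-targeting line and 852.4 in the *Creb3l1*-shRNA1 line. These levels stood at percentiles 60.6 and 86.4 of 14315 genes on the same scale. *Eln* made up 91.5% of the summed level per kilobase of all 10 members in the non-targeting line and 97.8% in the *Creb3l1*-shRNA1 line. An antisense gene, *Gm30003*, shares 267 exon bases with *Eln*. Its normalised counts were 3.02 to 10.4 over the 10 libraries, which is small beside those of *Eln*.

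**Figure D2:**
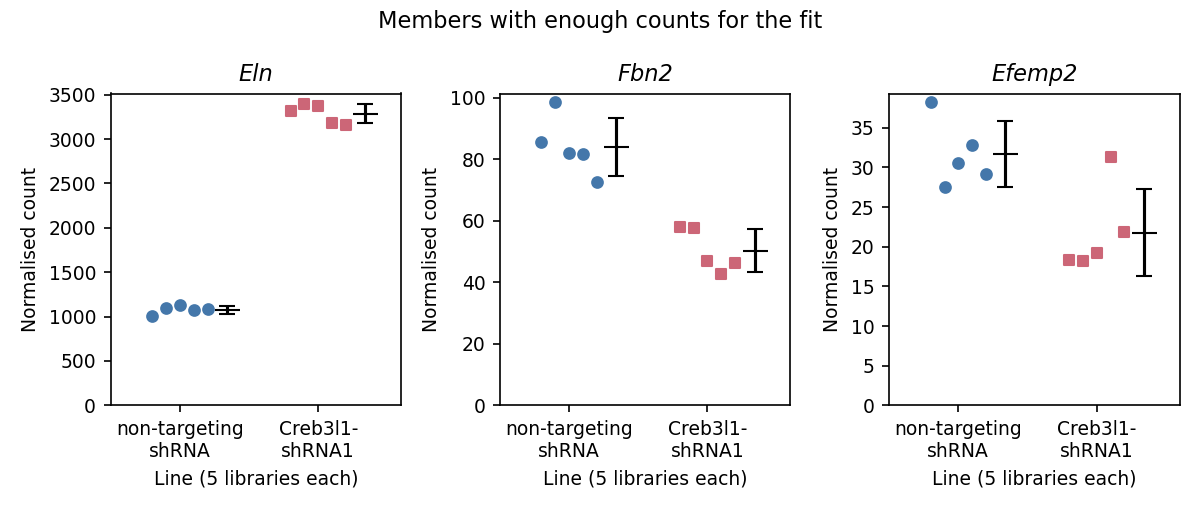
Normalised counts of *Eln*, *Fbn2* and *Efemp2* on linear axes that start at 0, with 1 point per library and the mean ± SD of each line (n = 5) beside the points. The lines are apart for *Eln* (1010 to 1132 and 3154 to 3394) and for *Fbn2* (72.6 to 98.55 and 42.64 to 57.88), and for *Efemp2* replicate 4 of the *Creb3l1*-shRNA1 line, at 31.27, lies among the non-targeting libraries.

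Fibrillins form the microfibrils on which elastin is laid down. *Fbn2* (ENSMUSG00000024598, chromosome 18, minus strand), the fibrillin best known from developing tissue, was the main fibrillin RNA of these cells. Its normalised counts were 85.5, 98.55, 81.91, 81.69 and 72.6 in the non-targeting replicates and 57.88, 57.79, 46.8, 42.64 and 46.35 in the *Creb3l1*-shRNA1 replicates. Each *Creb3l1*-shRNA1 library was below each non-targeting library, with replicates 1 and 2 of the knockdown line closest to them. The means were 84.05 ± 9.40 and 50.29 ± 7.08 (SD, n = 5 each) and the log2 fold change was -0.74 (SE 0.14). A long non-coding gene on the other strand, *Gm26507*, shares 129 exon bases with *Fbn2*, and its normalised counts were 4.89 to 11.3 and 2.73 to 4.59 in the respective lines.

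*Fbn1* (ENSMUSG00000027204, chr2:125300594-125507993, minus strand), the major fibrillin of adult connective tissue, had 19 counts over the 5 non-targeting libraries and 19 over the 5 *Creb3l1*-shRNA1 libraries. Of the latter, 11 were in replicate 4 and 5 in replicate 5, and the other replicates had 1 each. Per kilobase of transcript, *Fbn2* had 7.61 normalised counts in the non-targeting line and *Fbn1* 0.315. Among the microfibril-associated glycoproteins, *Mfap2* (ENSMUSG00000060572), which binds fibrillin and tropoelastin, had 5 and 8 counts over the libraries of the respective lines and no count in 4 of the 10 libraries. *Mfap4* (ENSMUSG00000042436), an extracellular glycoprotein found on elastic fibres, had 2 and 1 counts and none in 8 libraries. A count of 0 allows up to 3 counts in that library, for counting error only. The counts of these 3 genes cannot show a difference between the lines.

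Fibulins and emilins link tropoelastin to the microfibrils and to the cell surface. *Efemp2* (fibulin-4, ENSMUSG00000024909, chr19:5473954-5482517, plus strand), which brings lysyl oxidase to tropoelastin, was the most abundant of those among the members. Its normalised counts were 38.22, 27.55, 30.56, 32.86 and 29.23 in the non-targeting replicates. In the *Creb3l1*-shRNA1 replicates they were 18.38, 18.19, 19.15, 31.27 and 21.81. The lines overlapped through replicate 4 of the *Creb3l1*-shRNA1 line, and its other 4 libraries lay below every non-targeting library. The means were 31.69 ± 4.14 and 21.76 ± 5.51 (SD, n = 5 each) and the log2 fold change was -0.54 (SE 0.21). Without that replicate the log2 fold change was -0.70, and this was the only 1 of 19 fits in which the gene was called. *Efemp2* shares 173 exon bases with *Mus81* on the other strand, a gene with 954.1 normalised counts in the non-targeting line and 747.5 in the *Creb3l1*-shRNA1 line. Whether the authors' counting used strand is not given in the sources used here, so reads of *Mus81* counted on *Efemp2* cannot be told apart from its own.

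The other fibulins and *Emilin1* were scarce. *Fbln5* (ENSMUSG00000021186), which binds tropoelastin and integrins, had 32 counts over the non-targeting libraries and 26 over the *Creb3l1*-shRNA1 libraries. *Fbln2* (ENSMUSG00000064080) had 24 and 35, *Fbln1* (ENSMUSG00000006369) 16 and 9, and *Emilin1* (ENSMUSG00000029163), a glycoprotein at the interface of elastin and microfibrils, 35 and 31. The 2 lines overlapped for each of them. Over all 7 members that were not tested, the sum over the 10 libraries was 3 to 66 counts and no library held more than 12.76 normalised counts of any. When the filter on low counts was removed, their log2 fold changes lay between -0.85 and 0.56 with SEs of 0.46 to 1.33, each close to or larger than the estimate itself, so a difference was not detectable at this depth.

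Levels between genes were compared per kilobase of the longest coding transcript. In the non-targeting line the order was *Eln* (280.2), *Efemp2* (12.03), *Fbn2* (7.61) and *Emilin1* (1.83), with every other member lower. In the *Creb3l1*-shRNA1 line it was *Eln* (852.4), *Efemp2* (8.26), *Fbn2* (4.56) and *Emilin1* (1.59). *Emilin1*, *Fbln5*, *Fbln2*, *Mfap2*, *Fbln1*, *Fbn1* and *Mfap4* rested on so few counts that their order among themselves is not given weight. The ratio of *Eln* to *Fbn2* on this scale was 36.81 in the non-targeting line and 187.1 in the *Creb3l1*-shRNA1 line, and that of *Eln* to *Efemp2* was 23.29 and 103.2. With the length of all merged exons in place of the longest transcript these ratios were 20.96 and 106.6, and 15.94 and 70.61, so their size depended on the length used and their order between the lines did not.

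**Figure D3:**
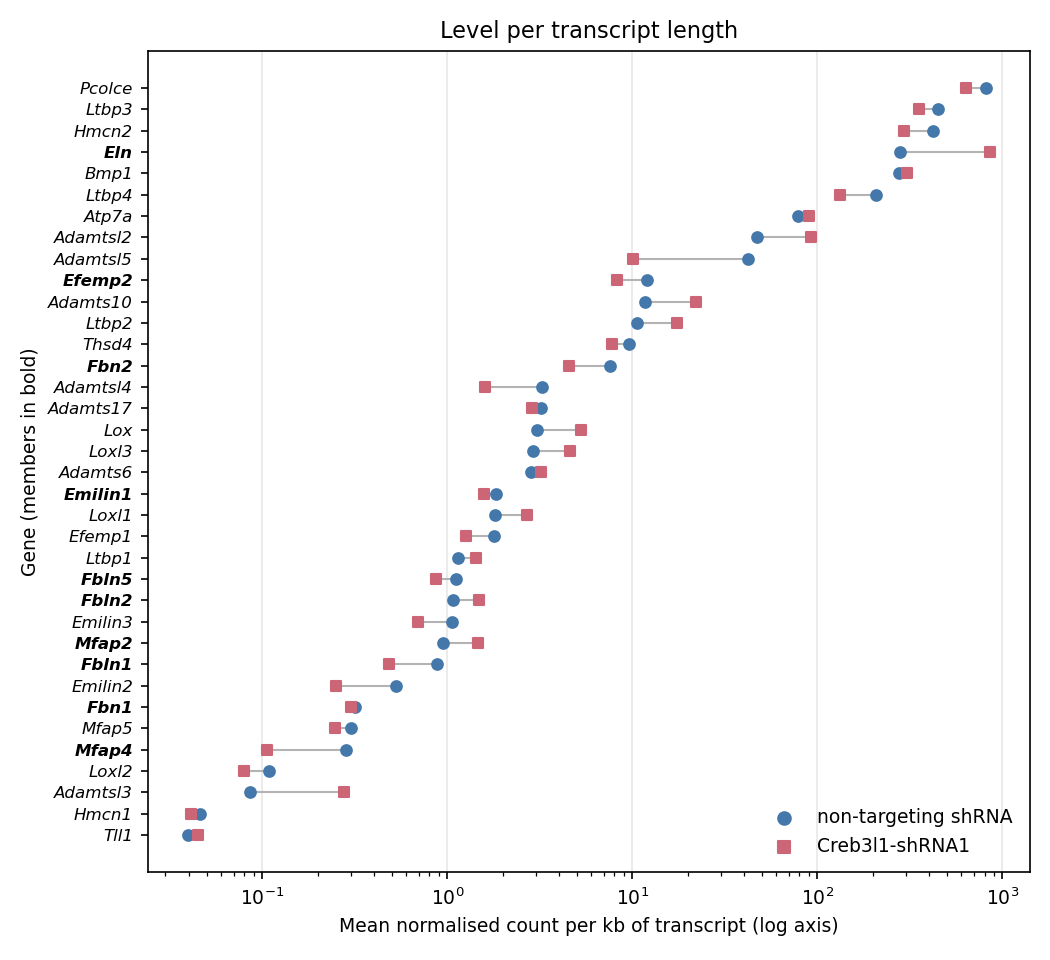
Mean normalised count per kilobase of transcript on a log axis for the elastic fibre genes (bold) and for the microfibril, fibulin and cross-linking genes with counts, in the non-targeting line (circles) and the *Creb3l1*-shRNA1 line (squares), joined by a line per gene. *Eln* is the only member above 100, at 280.2 and 852.4, which is among *Pcolce*, *Ltbp3*, *Hmcn2* and *Bmp1* in the non-targeting line and above all 4 in the *Creb3l1*-shRNA1 line, while *Fbn1* and *Mfap4* are under 1 in both lines.

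Smooth muscle and endothelial markers were at low levels in both lines. Of 5 smooth muscle markers *Cnn1* had no count, *Acta2*, *Myh11* and *Tagln* were at most 10.6 in any library, and *Des*, which encodes an intermediate filament protein of muscle, fell from 54.7 to 6.43 (log2 fold change -3.07, edgeR adjusted p = 1.1e-13, n = 5 per line). The smooth muscle sum was 55.02 to 78.45 in the non-targeting libraries and 14.21 to 26.59 in the *Creb3l1*-shRNA1 libraries, a difference carried by *Des*. Of 4 endothelial markers *Cdh5* and *Kdr* had no count, and *Pecam1* fell from 13.8 to 6.41 (adjusted p = 0.0063 in the same edgeR test), with sums of 16.95 to 25.67 and 7.492 to 11.03. The part of such cells in the levels of the elastic fibre genes was not tested.

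Fibroblast markers were mixed. *Lum* had no count and *Dcn* and *Thy1* at most 1.06 in any library, but the collagen genes *Col1a1*, *Col1a2* and *Col3a1* were present, and 0 of the 3 fibroblast markers tested was called by edgeR at an adjusted p under 0.01 (*Col1a1* had an adjusted p of 0.032, with means of 716.8 and 934.9). The sum of the 9 markers was 847 to 1239 in the non-targeting libraries and 995 to 1788 in the *Creb3l1*-shRNA1 libraries, so it varied more within a line than *Eln* did. *Col1a2* was 312.8 in non-targeting replicate 1 and 166.2 to 206.6 in the other non-targeting libraries, and 512.7 and 343.9 in *Creb3l1*-shRNA1 replicates 3 and 4 against 147 to 220.5 in the rest. In non-targeting replicate 1 *Efemp2* was the highest of its line at 38.22, while *Fbn1* and *Fbln5* had 2 and 8 counts, below the 7 and 10 of the highest libraries of that line. In *Creb3l1*-shRNA1 replicate 4 *Efemp2* was again the highest at 31.27, and *Fbn1* and *Fbln5* had their largest counts of the line, 11 each. In *Creb3l1*-shRNA1 replicate 3, the library with the most *Col1a2*, none of the 3 was raised, with *Efemp2* at 19.15 and 1 and 3 counts of *Fbn1* and *Fbln5*. Other scarce members differed, since *Fbln2* and *Emilin1* were the highest of their line in this replicate. In non-targeting replicate 1 and *Creb3l1*-shRNA1 replicates 4 and 3, *Fbln2* was 9.052, 7.58 and 12.76, and *Emilin1* was 4.023, 7.58 and 9.574. *Eln* was 1010, 3186 and 3368 in these libraries in the same order, against 1069 to 1132 in the rest of the non-targeting line and 3154 to 3394 in the rest of the *Creb3l1*-shRNA1 line. Without these 3 libraries the log2 fold change was 1.59 for *Eln*, -0.63 for *Fbn2* and -0.62 for *Efemp2*. The part of collagen-expressing cells in the levels of the elastic fibre genes was not tested.

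Around these 10 genes stand those that build, bind, cross-link and degrade the fibre. In 8 lists of such genes, 81 genes were in the table and 50 had enough counts for the test. Of the 50, 14 rose, 14 fell and 22 did not pass at an adjusted p under 0.01 (edgeR quasi-likelihood test), against 40.7% called among all genes tested. The median log2 fold change of the 50 was 0.013, and that of all genes tested was -0.0025. With a change of at least 1.5-fold as well, 5 rose and 5 fell, where 3.28% and 4.45% of all genes did so. Without the 3 libraries with the most fibroblast marker counts, 9 rose and 14 fell. In that smaller fit 2437 of all 14613 genes tested rose and 2248 fell, against 2958 and 2879 of 14336 with all libraries.

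**Figure D4:**
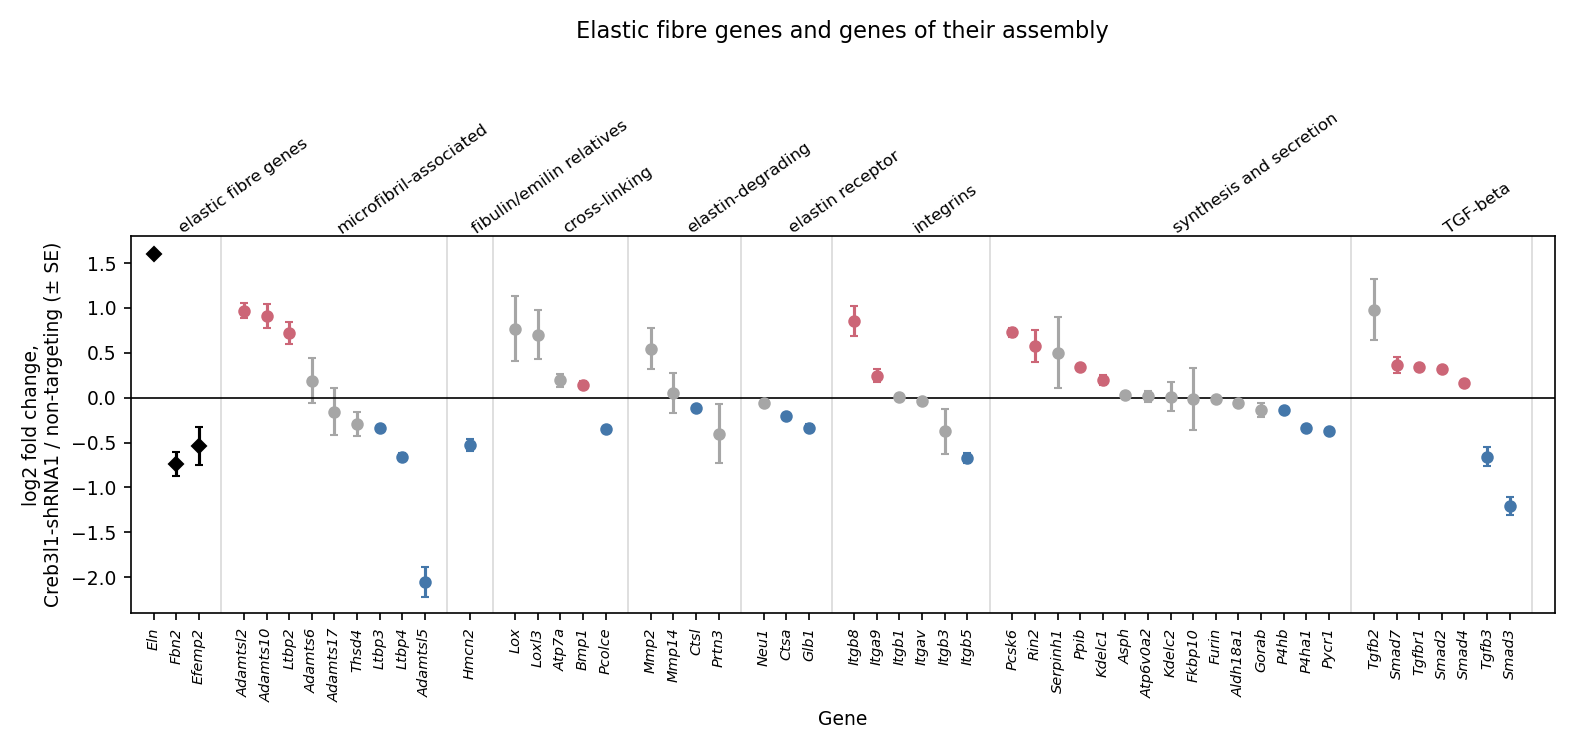
Log2 fold change (*Creb3l1*-shRNA1 over non-targeting) with its SE for each tested gene, grouped by list. Black diamonds are the 3 elastic fibre genes that were tested, red and blue circles are other genes that rose or fell at an adjusted p under 0.01, and grey circles are genes that did not pass. *Eln* lies at 1.61, above every other gene shown, and *Adamtsl5* lies lowest at -2.05.

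Genes of the microfibril were divided. Of 14 with a row of counts, 9 were tested, 3 rose and 3 fell, with a median log2 fold change of -0.16. Among all genes tested, 20.6% rose and 20.1% fell at the same threshold. *Adamtsl2*, which encodes a secreted protein that binds fibrillin and latent TGF-β binding protein, rose from 170 to 335 (0.97, SE 0.083, edgeR adjusted p = 5.9e-13). *Adamts10*, a fibrillin-binding metalloproteinase, rose from 47.5 to 89.0 (0.91, SE 0.13), and *Ltbp2*, which binds fibrillin and fibulin-5, rose from 71.3 to 117 (0.72, SE 0.12). *Adamtsl5*, another fibrillin-binding protein, fell from 82.6 to 19.7 (-2.05, SE 0.17, adjusted p = 1.2e-13 in the same edgeR test). *Ltbp4*, which takes part in elastin deposition together with fibulin-4 and fibulin-5, fell from 1122 to 710 (-0.66, SE 0.043, edgeR adjusted p = 1.6e-16). *Ltbp3*, named after its values were seen, fell from 2329 to 1845 and completed the 3 that fell. Of 8 relatives of the fibulins and emilins, the 1 that was tested, *Hmcn2*, a very large fibulin-domain protein, fell from 6624 to 4597 (-0.53, SE 0.064, edgeR adjusted p = 0.0001).

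Lysyl oxidases make the cross-links that turn tropoelastin into elastin, and copper and procollagen enzymes serve them. Of 10 such genes 5 were tested, 1 rose and 1 fell, where 20.6% and 20.1% of all genes tested did so. *Pcolce*, an enhancer of procollagen C-proteinase, fell from 1325 to 1037 (-0.35, edgeR adjusted p = 2.2e-10). *Bmp1*, that proteinase, which also activates lysyl oxidase, rose from 1015 to 1122 (0.14, SE 0.040, edgeR adjusted p = 0.0034), a call that was lost without non-targeting replicate 1 or 3. The oxidases themselves were scarce and were looked at after their values were known. *Lox* had means of 14.4 and 24.9 (log2 fold change 0.77, SE 0.36, edgeR adjusted p = 0.085), with 45.7 in replicate 3 and 31.3 in replicate 4 of the *Creb3l1*-shRNA1 line and 6.6 to 23.1 in the 8 other libraries. *Loxl3* had means of 11.8 and 19.0 (edgeR adjusted p = 0.03), and *Loxl1*, the oxidase most tied to elastin, had 5.95 and 8.85 and was not tested. Of 11 elastin-degrading proteases 4 were tested, and 1 was called, the lysosomal cathepsin gene *Ctsl*, which fell from 3596 to 3317 (-0.12, edgeR adjusted p = 0.00044). *Mmp2*, a gelatinase, had 35.4 and 52.1 (0.55, edgeR adjusted p = 0.053), and without the 3 libraries with the most fibroblast marker counts its log2 fold change was 0.045.

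The elastin receptor complex that senses elastin fragments consists of the products of *Glb1*, *Ctsa* and *Neu1*. *Glb1* fell from 1636 to 1301 (-0.33, edgeR adjusted p = 9.3e-11) and *Ctsa* from 5128 to 4455 (-0.20, adjusted p = 3.7e-08 in the same edgeR test), and *Neu1* did not pass. The same products act in the lysosome. Of 9 listed integrin genes, 6 were tested, 2 rose and 1 fell, where 20.6% and 20.1% of all genes tested did so. *Itgb8*, whose product activates latent TGF-β, rose from 37.1 to 67.8 (0.86, SE 0.17, edgeR adjusted p = 3.1e-05). The other that rose, *Itga9*, named after its values were seen, went from 242.2 to 285.9 (0.24, SE 0.072, edgeR adjusted p = 0.0049). *Itgb5*, which encodes a partner of the integrin αv chain, fell from 713 to 448 (-0.67, SE 0.053, edgeR adjusted p = 5.3e-14). The median log2 fold change was -0.20 for the receptor genes and -0.010 for the integrins.

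Of 16 genes of tropoelastin and collagen synthesis and secretion 15 were tested, 4 rose and 3 fell, with a median log2 fold change of 0.013. The largest change was that of *Pcsk6*, a proprotein convertase, which rose from 433 to 719 (0.73, SE 0.049, edgeR adjusted p = 3.8e-16). TGF-β is a known inducer of elastin. Of 10 genes of that pathway 7 were tested, 4 rose and 2 fell, with a median log2 fold change of 0.33. Beside the counts of this list and the previous one, 20.6% of all genes tested rose and 20.1% fell. *Smad3*, which carries the signal to the nucleus, fell from 220 to 95.6 (-1.21, SE 0.099, edgeR adjusted p = 1.6e-13), and the ligand gene *Tgfb3* fell from 140 to 88.8 (-0.66, SE 0.11, adjusted p = 2.1e-06 in the same edgeR test). The 4 that rose, named after their values were seen, were *Tgfbr1*, *Smad2*, *Smad4* and *Smad7*, by 0.16 to 0.36 on the log2 scale.

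The genes closest to *Eln* over the 10 libraries were found among 11000 genes whose mean normalised count reached 100, by the distance of log2 values centred on the non-targeting line. They were *Il6ra*, a cytokine receptor (distance 0.206, means 272.4 and 856.6), *Hs6st1*, a heparan sulphate sulphotransferase (0.273, 2484 and 7072), *Gadd45a*, a stress-response gene (0.274, 585 and 1670), *Grik2*, a glutamate receptor subunit (0.287, 144.5 and 410.2), and *Amotl2*, an angiomotin (0.327, 474.9 and 1566). Their log2 fold changes were 1.51 to 1.72. None is a component of the elastic fibre, and since the distance is set mostly by the difference between the lines, this is a description of size and evenness only.

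The promoters of the members were searched for GACGTG, the core of the G-box that the study examined for *Creb3l1*, and for CACGTG, on both strands, in RefSeq windows of 250 bases before and 50 after the start on GRCm38.p6. Windows were at hand for 7 of the 10 members and not for *Eln*, *Fbn2* and *Mfap4*. *Efemp2* held GACGTG in 1 of its 3 windows, and *Fbln1* held both GACGTG and CACGTG in each of its 2. Of all 27025 genes with a window, 7.15% held GACGTG and 8.09% held CACGTG in at least 1, and of all 32851 windows 6.38% and 7.15% did. The words share 5 letters. The *Efemp2* window with the word (chr19:5473696-5473995, plus strand) is shown because *Fbln1*, the other gene with the word, had too few counts to compare, and capitals mark the word, which begins at base -110 from the start.
Efemp2: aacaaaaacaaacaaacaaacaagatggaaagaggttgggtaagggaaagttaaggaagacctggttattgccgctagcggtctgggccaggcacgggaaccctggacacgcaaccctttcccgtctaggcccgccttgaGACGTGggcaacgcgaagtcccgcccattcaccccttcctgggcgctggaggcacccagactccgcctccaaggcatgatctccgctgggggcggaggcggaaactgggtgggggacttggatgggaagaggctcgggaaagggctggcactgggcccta
The match says only that these letters are in the window.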

How the data were processed

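RNA was measured in 10 libraries, 5 per line, mapped to lines and replicate numbers by the sample titles. The authors selected poly(A) RNA, prepared it with a stranded Illumina kit, aligned paired reads to GRCm38 (STAR) and assigned them to Ensembl genes (featureCounts). The settings for strand and for reads that map to several genes are not given in the sources used here. The deposited values are these raw counts, whole numbers without normalisation, for 53801 genes.

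The test was that of edgeR 4.0.16 in R 4.3.3 (filterByExpr, TMM, robust quasi-likelihood test without covariates, Benjamini-Hochberg adjustment over 14336 genes, threshold 0.01), with tables made in Python 3.11.15 and DESeq2 1.42.0 as an alternative. SEs come from the log2 fold change and its F statistic. Lengths were those of the longest coding transcript in a GENCODE annotation of GRCm38, which matched 53706 identifiers. The script was tested on simulated data. Depth was 17420698 to 22205107 counts per library, and counting error is largest for genes with few reads.

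The members and the lists were chosen with earlier results of these data known. Named are all members and *Creb3l1*. From the lists, genes called with at least a 1.5-fold change are named, or else the 2 with the smallest p. The 5 genes nearest to *Eln* are also named, and other genes are said to have been chosen later. Alternatives were DESeq2, other scaling (RLE size factors or totals alone), other filters (none, or 10 counts or more throughout), a block for the replicate number, leaving out each library, and other thresholds (an adjusted p under 0.05, or a fold of 1.5 added). A fit without the robust option and a fit without 3 libraries were added after the data were seen. Same-numbered libraries of the 2 lines did not deviate together (correlations -0.062 to 0.038), so the numbers do not pair them. No libraries were duplicates. The authors' quantitative PCR and other assays were not analysed here.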

Additional observations from a re-analysis of the deposited data

Results flagged for a closer look

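In a group of 5 libraries, the most extreme library's gap to its neighbour was divided by the range and compared with Dixon's value of 0.71. Of 42 groups examined 4 stood out, where 1 in 20 (2.1 groups) are expected by chance. *Efemp2* was 31.27 normalised counts in *Creb3l1*-shRNA1 replicate 4 and 18.19 to 21.81 in the other 4. *Adamtsl5* was 25.45 in *Creb3l1*-shRNA1 replicate 5 and 17.06 to 19.26 in the others. *Itgb8* was 52.12 in *Creb3l1*-shRNA1 replicate 3 and 69.57 to 73.91 in the others. *Ctsa* was 4836 in non-targeting replicate 5 and 5160 to 5244 in the others. No single library was behind more than 1 of these.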

How the results depend on the processing

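Over 19 fits the log2 fold change was 1.58 to 1.62 for *Eln*, -0.80 to -0.63 for *Fbn2*, -0.70 to -0.46 for *Efemp2* and -1.78 to -1.73 for *Creb3l1*, and none changed direction. With 1 library left out, these ranges were the same except for *Fbn2* (-0.80 to -0.67). The other lists had 11 to 14 genes that rose and 14 to 15 that fell with 1 library left out, and 5408 to 6026 genes were called across the table. With at least 1.5-fold, 5 list genes rose, 5 fell and 1108 genes were called across the table, since the added condition removes small changes. Without the 3 libraries with the most fibroblast marker counts, 9 list genes rose, with 7 libraries in the fit. That fit called 4685 genes across the table, against 5837 with all libraries. The replicate number as a block called 6013 genes, and the counts of list genes were 14 and 14 as without it, with *Eln* at 1.61. The call of *Bmp1* was lost without non-targeting replicate 1 (0.12), without replicate 3 (0.12) and without the 3 libraries (0.13), and *Mmp2* was called without the filter (0.55) and without *Creb3l1*-shRNA1 replicate 1 (0.72). The causes were not tested. Depth limits the 7 members that were not tested, each with at most 66 counts over 10 libraries, and each line is a single stable line.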
